A study of Astyanax mexicanus with 12 samples.

Results

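Egg coat genes of the zona pellucida (ZP) family were followed in the ovary of Astyanax mexicanus, a tetra that lives in rivers as sighted surface fish and in caves as eyeless cavefish. The genes were chosen by name: zp3c, zp2l2 and zpax1, and any other gene whose symbol begins with zp followed by a class number from 1 to 4 or by ax. The rule found 8 genes among the 27420 in the count table, of which 16752 carry a symbol, and all 8 were among the 14627 genes with enough reads to be tested. By class they are 5 genes of the zp3 class (zp3c, zp3d.2, zp3e, zp3f.1 and zp3f.2), a pair of the zp2 class (zp2l1 and zp2l2) and zpax1.

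Right ovaries were taken from females about 660 days after fertilisation, with 3 libraries in each of 4 groups: starved Tinaja cavefish, untreated control Tinaja cavefish, starved surface fish and untreated control surface fish. Every group is labelled wild type, and Tinaja is a cave population of the species. The labels state no length of starvation. They also do not say whether the libraries of a group came from different tanks or families, so a p-value here measures only the spread among the sequenced samples, part of which may be technical. The deposited counts are reads per gene, with 5949155 to 10198881 reads assigned to genes per library. Levels are given as CPM, which are counts scaled to a common library size by edgeR's TMM method (trimmed mean of M values).

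Zona pellucida proteins are secreted glycoproteins that share a polymerising ZP domain and assemble into the coat around the growing egg, called the vitelline envelope or chorion in fish. In some fish the oocyte makes them in the ovary, and in others the liver makes them under oestrogen and the blood carries them to the ovary. Proteins of the ZP3 and ZP2 classes build the filaments of the coat, and in mice ZP2 is cleaved after fertilisation as part of the block to further sperm. The ZPAX class is known from fish, amphibians and birds. The coat shields the egg and limits sperm entry, and in fish it hardens after spawning.

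The ovarian identity of the samples was checked against marker genes. All 19 oocyte markers present in the table were detected and tested, and their summed level was 8747 to 9464 CPM in starved Tinaja fish, 8404 to 10507 CPM in control Tinaja fish, 9997 to 10851 CPM in starved surface fish and 7617 to 8575 CPM in control surface fish. Reads mapped to several places, which are not part of the gene counts, were 12.5% to 16.8% of all reads in starved Tinaja libraries, 12.1% to 13.6% in control Tinaja libraries, 9.91% to 11.9% in starved surface libraries and 11.5% to 13.0% in control surface libraries. Genes named as copies of each other, zp3f.1 with zp3f.2 and zp2l1 with zp2l2, could share such reads if their sequences are close. No sequence was compared, and how much this share bears on their levels was not tested.

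In starved surface fish, zp3c and zp2l2 were the members of the family that rose past the test. The zp3c level was 627, 553 and 806 CPM in starved surface fish, against 445, 393 and 389 CPM in control surface fish. Every starved library lay above every control library, and the third starved library was well above the other two. On the log2 scale the difference was 0.70 (SE 0.123, 95% interval 0.43 to 0.96), which is 1.62-fold, with an adjusted p of 0.0255 by edgeR's quasi-likelihood test with Benjamini-Hochberg adjustment.

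The zp2-class gene zp2l2 had 1109.9, 1046 and 904 CPM in starved surface fish, against 695, 527 and 736 CPM in control surface fish. The groups did not overlap, and their SDs were 106 CPM in starved and 111 CPM in control surface fish. The log2 difference was 0.64 (SE 0.144, 95% interval 0.33 to 0.96), or 1.56-fold, with an edgeR adjusted p of 0.0423.

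These 2 of 8 members called higher stand beside 1.74% of all tested genes called higher in the same comparison. Both are among the genes that the choice named singly, and the members were chosen with earlier results of these data known. Shares of members set beside all genes, here and below, are therefore a description. No member was called lower, as 1.45% of all tested genes were. The call for zp3c was lost without the second control library (adjusted p 0.0908, edgeR) or the third (0.0792), and in a fit of only the 6 surface libraries (0.0618). The call for zp2l2 was lost in that fit too (0.0668), with no filter on low counts (0.0559) and in 10 of the 12 fits that leave out a library, with edgeR adjusted p-values of 0.0514 to 0.128.

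The other zp3-class genes did not pass the test by edgeR. DESeq2 called zp3e (adjusted p 0.00309) and zp3d.2 (0.00874) higher, and limma voom called zp3e (0.0451). In starved surface fish zp3e had 1283, 1210.4 and 1243 CPM, against 1058, 908 and 852 CPM in control surface fish, a log2 difference of 0.41 (edgeR adjusted p 0.0519). The zp3d.2 level was 179, 197 and 218 CPM in starved surface fish, against 160.4, 154 and 166 CPM in control surface fish, a log2 difference of 0.31 (edgeR adjusted p 0.0517). Both genes had every starved library above every control library, and on the log2 scale both differences were smaller than the 0.70 of zp3c. The 2 zp3f copies differed less between the groups. The zp3f.2 level was 339, 334 and 342 CPM in starved surface fish, against 315, 263 and 289.5 CPM in control surface fish (log2 difference 0.23, edgeR adjusted p 0.174). The zp3f.1 level was 166, 154 and 120.3 CPM in starved surface fish, against 159, 161 and 161 CPM in control surface fish, and these groups overlapped (log2 difference -0.13, 95% interval -0.49 to 0.23, edgeR adjusted p 0.691).

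The ZPAX-class gene zpax1 had 1302, 1237 and 1242 CPM in starved surface fish, against 1062, 941 and 869.9 CPM in control surface fish. The starved libraries lay together above all control libraries, and the log2 difference of 0.40 had an edgeR adjusted p of 0.0541. The second zp2-class gene, zp2l1, had 685, 1096 and 1567 CPM in starved surface fish, against 888, 844 and 448 CPM in control surface fish. Its libraries differed by more than their groups, so that a log2 difference of 0.62, close to that of zp2l2, had a 95% interval of -0.10 to 1.34 (edgeR adjusted p 0.288).

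Across the family, 6 of 8 members had all starved surface libraries above all control surface libraries, where 13.7% of all tested genes did. The median log2 difference of the 8 members was 0.40, and that of all tested genes was -0.01; with libraries scaled to oocyte markers, described further on, these medians were 0.09 and -0.32, and zp3d.2 and zp3f.2 turned negative. Summed over the 8 members, reads were 0.539%, 0.559% and 0.586% of gene reads in starved surface fish, against 0.479%, 0.429% and 0.399% in control surface fish.

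**Figure D1:**
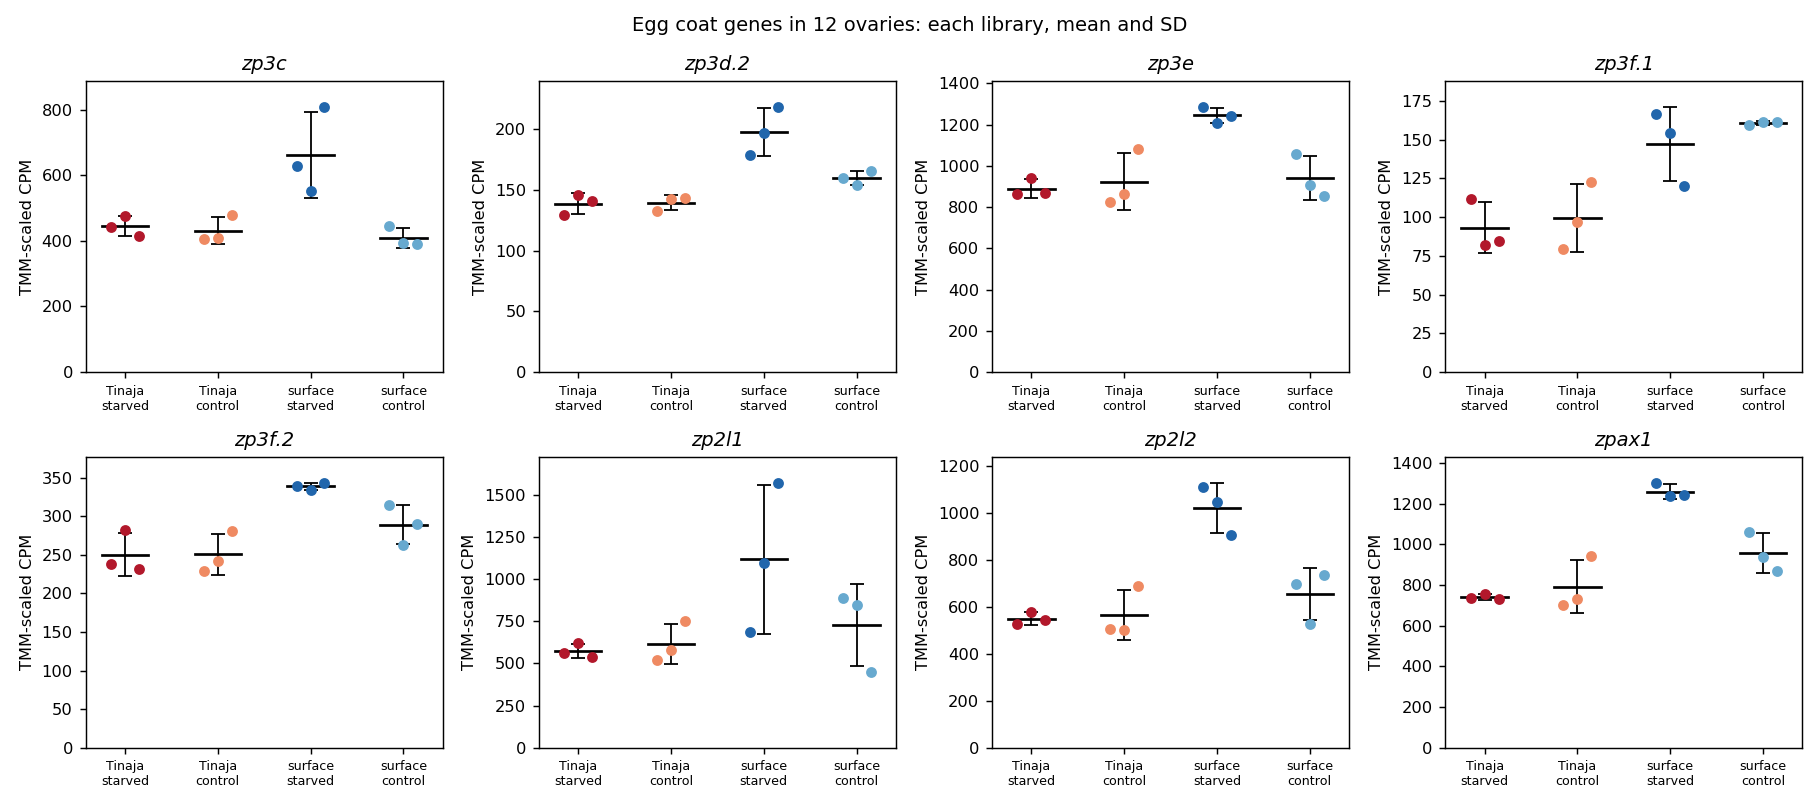
Level of each of the 8 egg coat genes in CPM (vertical axes start at 0) in the 4 groups. Points are libraries and bars are the mean with its SD (n = 3). Starved surface fish lie above control surface fish for 6 genes, zp2l1 and zp3f.1 being the exceptions (scaled to oocyte markers, zp3d.2 and zp3f.2 turn negative), and the Tinaja groups overlap for all 8.

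In Tinaja cavefish no member passed the test for starvation, and the starved and control groups overlapped for all 8, where 4.69% of all tested genes had all starved libraries above all control libraries and 3.93% had them all below. The zp3c level was 442, 476 and 415 CPM in starved Tinaja fish, against 405, 408 and 478 CPM in control Tinaja fish, a log2 difference of 0.05 (95% interval -0.22 to 0.31). The zp2l2 level was 526, 578 and 544 CPM in starved Tinaja fish, against 504, 501 and 688 CPM in control Tinaja fish, a log2 difference of -0.04 (95% interval -0.35 to 0.27). In both genes the highest control library exceeded the highest starved library.

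For zpax1 the libraries held 738, 757 and 731 CPM in starved Tinaja fish, against 702, 734 and 941 CPM in control Tinaja fish, a log2 difference of -0.09 (95% interval -0.32 to 0.13). The zp2l1 level was 559.6, 622 and 538 CPM in starved Tinaja fish, against 517, 577 and 749 CPM in control Tinaja fish (log2 difference -0.10, 95% interval -0.82 to 0.62). The SD of zp2l1 was 43.7 CPM in starved and 120.4 CPM in control Tinaja fish, below the 442 CPM of starved and the 242 CPM of control surface fish.

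Among the other zp3-class genes, zp3e averaged 890.3 ± 44.2 CPM in starved Tinaja fish and 924 ± 139 CPM in control Tinaja fish (SD, n = 3 each). The zp3d.2 mean was 139 ± 8.38 CPM in starved Tinaja fish and 139.8 ± 6.03 CPM in control Tinaja fish. The copies zp3f.1 and zp3f.2 averaged 93.0 ± 16.5 and 250.2 ± 27.8 CPM in starved Tinaja fish, against 99.6 ± 21.9 and 250.5 ± 26.9 CPM in control Tinaja fish. Each of these 4 genes had group means closer together than the larger SD of its groups.

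The third control Tinaja library was the highest of its group for all 8 members, and it also had the highest summed oocyte markers of that group, 10507 CPM beside 8404 and 8621 CPM. Without it, all 8 members had a small positive log2 difference (median 0.08), against a median of -0.05 with it. The part of the oocyte markers in these values was not tested. No member had an unadjusted p under 0.05 in this comparison by edgeR, DESeq2 or limma voom, and edgeR called 0.0205% of all tested genes, or 3 genes.

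The difference between the populations' responses was tested as an interaction, Tinaja minus surface. No member passed (edgeR), and 0.0684% of all tested genes did. The log2 difference of responses was -0.65 for zp3c (95% interval -1.03 to -0.27, adjusted p 0.172), -0.68 for zp2l2 (0.193), -0.49 for zpax1 (0.189) and -0.46 for zp3e (0.199), each by edgeR. At an unadjusted p under 0.05 edgeR had 5 members, where 15.5% of all tested genes were under it. DESeq2 called 4 members, zp2l2, zp3c, zp3e and zpax1, among 270 genes in all, and limma voom called no member and 8 genes in all. The response of zp3c in surface fish and its lack of a call in Tinaja fish are therefore not shown to differ by edgeR.

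**Figure D2:**
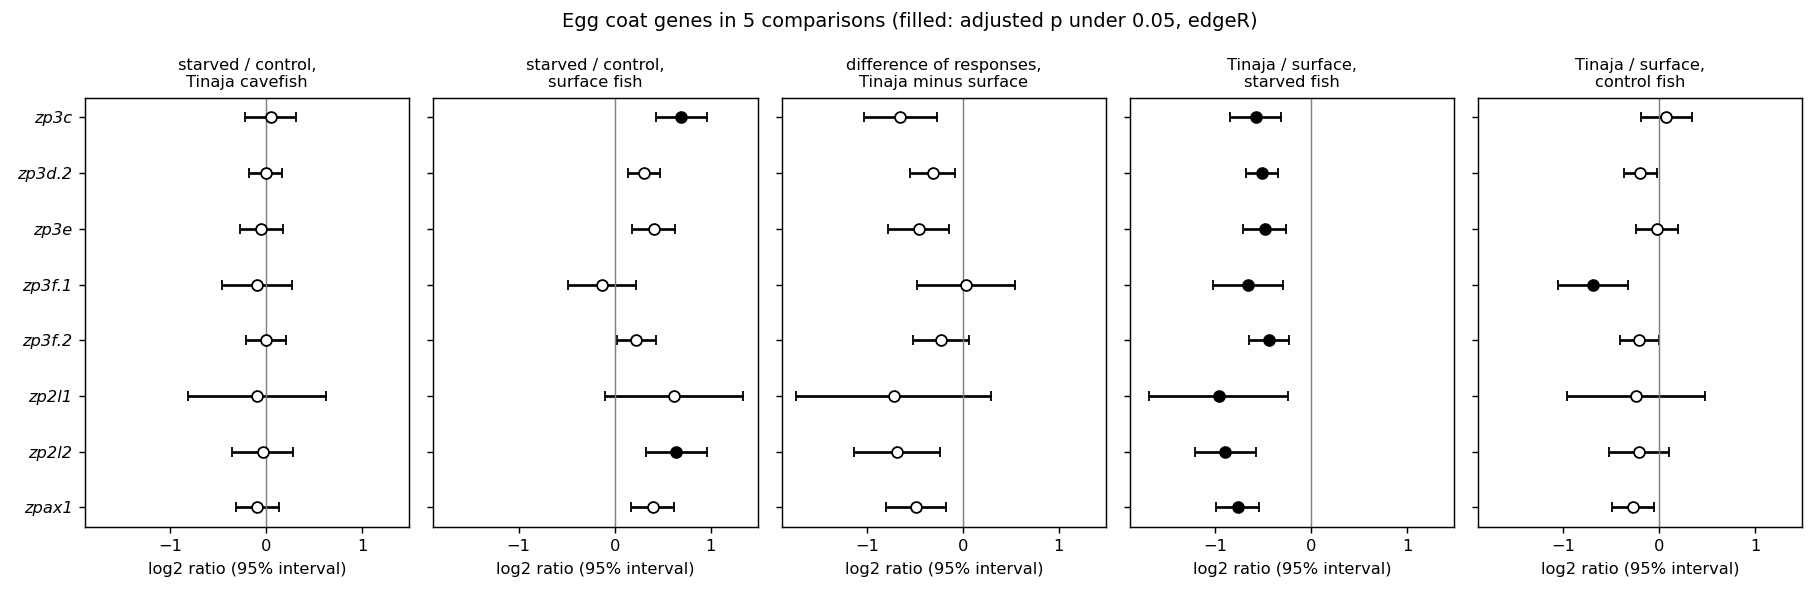
Log2 difference of each egg coat gene with its 95% interval (edgeR) in the 5 comparisons, filled where the adjusted p was under 0.05. In starved fish the Tinaja minus surface differences are all below 0, from -0.44 to -0.96, while in Tinaja fish the starved minus control differences lie around 0.

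All 8 members were lower in starved Tinaja fish than in starved surface fish, and every Tinaja library lay below every surface library. In this comparison 20.0% of all tested genes were called lower and 26.0% had groups that did not overlap in that direction. The median log2 difference was -0.62 over the members and 0.01 over all tested genes. This comparison uses the same starved surface libraries as the starvation comparison above, so the counts are not independent of each other.

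The zp2-class genes had the largest differences. The log2 difference was -0.96 for zp2l1 (SE 0.322, edgeR adjusted p 0.0388) and -0.89 for zp2l2 (edgeR adjusted p 0.000658). The call for zp2l1 depended on single libraries: it was kept in 6 of 12 fits that leave out a library, and without the third starved surface library its log2 difference was -0.64 (edgeR adjusted p 0.140). For zpax1 the log2 difference was -0.76 (edgeR adjusted p 0.000149).

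Among zp3-class genes the log2 differences in starved fish were -0.66 for zp3f.1, -0.58 for zp3c, -0.51 for zp3d.2, -0.48 for zp3e and -0.44 for zp3f.2, with edgeR adjusted p-values of 0.000334 for zp3d.2 to 0.00926 for zp3f.1. The 7 members other than zp2l1 kept their call in all 12 fits that leave out a library and in all 9 other alternatives. The 9 include a fit on reads recovered from the deposited scaled values, which repeats the main fit and could not differ from it. Summed over the members, reads were 0.376% ± 0.0152 of gene reads in starved Tinaja fish and 0.561% ± 0.0240 in starved surface fish (SD, n = 3 each). This sum leaves out zpcx, a ZP domain gene described further on.

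Between control fish only zp3f.1 passed the test among the 8 members, where 16.4% of all tested genes were called lower, so the share of members called was near that of all genes. Its level was 79.1, 96.8 and 123 CPM in control Tinaja fish, against 159, 161 and 161 CPM in control surface fish. The control surface libraries were nearly equal, and all control Tinaja libraries lay below them. The log2 difference was -0.69 (SE 0.166, 95% interval -1.06 to -0.33, edgeR adjusted p 0.00877), and the call was kept in all 12 fits that leave out a library.

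The zp3d.2 level also did not overlap between control groups, with 133, 143 and 144 CPM in control Tinaja fish and 160.4, 154 and 166 CPM in control surface fish, but its edgeR adjusted p was 0.0705. Groups that did not overlap in that direction were found for 23.8% of all tested genes. The zpax1 log2 difference was -0.27 (edgeR adjusted p 0.0576). It passed without the third control Tinaja library (0.00260) and without the third control surface library (0.0420). Of the 9 other alternatives it passed in 4. These were edgeR with no filter (0.0366), edgeR with scaling to oocyte markers (0.000803), the DESeq2 test (0.0357) and limma voom (0.0449). For zp3c and zp3e the log2 differences were 0.07 and -0.02, with edgeR adjusted p-values of 0.678 and 0.880.

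The ratio between the CPM of paired genes was taken in each library and compared between libraries only, with no correction for gene length and no test. For zp2l1 over zp2l2 the ratio was 1.06, 1.08 and 0.989 in starved Tinaja fish and 1.03, 1.15 and 1.09 in control Tinaja fish. In surface fish it was 0.617, 1.05 and 1.73 with starvation and 1.28, 1.60 and 0.609 in controls. The ratio thus stayed within 0.989 to 1.15 over the 6 Tinaja libraries and ranged from 0.609 to 1.73 over the 6 surface libraries, with low and high values in both surface groups.

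For zp3f.1 over zp3f.2 the ratio averaged 0.377 ± 0.0905 in starved Tinaja fish, 0.394 ± 0.0457 in control Tinaja fish, 0.434 ± 0.0731 in starved surface fish and 0.559 ± 0.0538 in control surface fish (SD, n = 3 each). The control surface libraries, at 0.506 to 0.613, were all above the starved surface libraries, at 0.351 to 0.490. The pair zp3e over zpax1 was chosen after its values were seen. Its ratio was 1.15 to 1.24 in the 6 Tinaja libraries and 0.965 to 1.00 in the 6 surface libraries, so the populations did not overlap. Within populations, starved and control libraries overlapped in this ratio.

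**Figure D3:**
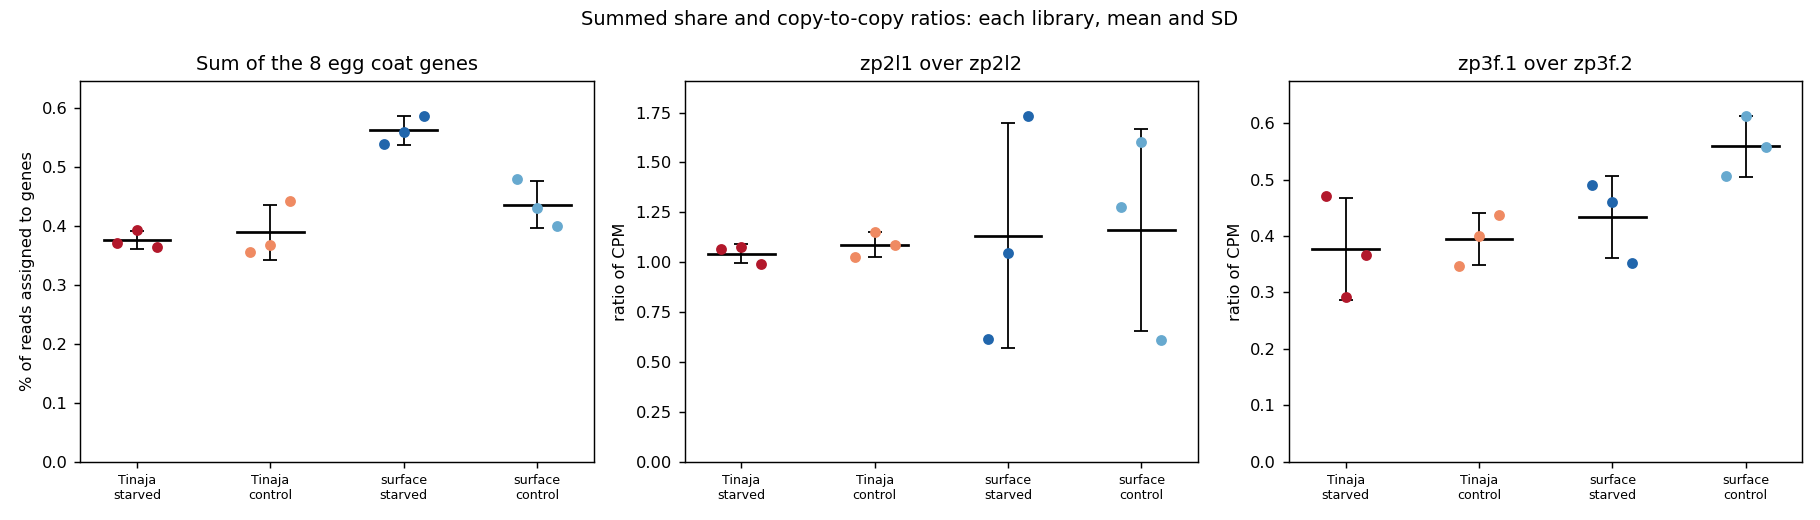
Share of gene reads taken by the 8 egg coat genes together (in %), and ratio of CPM of zp2l1 to zp2l2 and of zp3f.1 to zp3f.2, by group, with points as libraries and bars as the mean with its SD (n = 3). The zp2 ratio lies between 0.989 and 1.15 in the Tinaja groups and between 0.609 and 1.73 in the surface groups.

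Oocyte markers moved with the egg coat genes in the surface comparison. Of 19 tested, 7 were called higher in starved surface fish (piwil2, cpeb1b, btg4, zar1l, bmb, piwil1 and rbpms2b) and none lower. Of all tested genes 1.74% were called higher and 1.45% lower in this comparison. All 19 markers had a positive log2 difference, with a median of 0.30, beside a median of -0.01 over all tested genes. In starved fish 9 markers were lower and 1 higher in Tinaja than in surface fish, where 20.0% of all tested genes were lower and 20.3% higher. Between control fish 1 marker was lower and 4 were higher in Tinaja fish, where 16.4% of all tested genes were lower and 16.0% higher. Unlike the oocyte markers, summed granulosa genes were lower in starved surface fish, at 19.4 to 25.4 CPM against 29.7 to 32.6 CPM in control surface fish. Summed theca genes were lower too, at 1.22 to 1.40 CPM in starved against 2.89 to 5.35 CPM in control surface fish. These theca sums were low, and of 6 theca genes 4 were tested and none was called in this comparison. Of 21 granulosa entries 10 were tested and 1, a copy of runx1, had no read in any library; lhcgr was called lower. In bulk tissue, fewer cells of a type and less RNA per cell cannot be told apart.

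The marker sums of Tinaja fish were higher for granulosa genes, at 32.9 to 53.6 CPM in starved and 36.3 to 52.4 CPM in control Tinaja fish, and for theca genes, at 9.06 to 18.7 CPM in starved and 7.03 to 15.8 CPM in control Tinaja fish. The summed stroma, macrophage and vessel markers overlapped between starved and control fish within each population: stroma 333 to 641 and 433 to 907 CPM in starved and control Tinaja fish, and 339 to 431 and 359 to 483 CPM in starved and control surface fish. Macrophage sums were 50.0 to 98.2 and 57.5 to 132 CPM in starved and control Tinaja fish, and 33.4 to 50.5 and 23.1 to 116 CPM in starved and control surface fish. Most of the stroma sum was fn1a and most of the macrophage sum in surface fish was csf1ra, neither of which was called. Gene by gene, 10 of 11 tested stroma markers and 8 of 9 tested macrophage markers had a negative log2 difference in starved against control surface fish. Their medians were -1.46 and -1.21, beside -0.01 over all tested genes, and none was called. In starved against control Tinaja fish all 11 tested stroma markers and all 9 tested macrophage markers had a negative log2 difference. The medians there were -0.76 and -0.66, beside -3e-04 over all tested genes, and none was called. Vessel sums were 21.0 to 31.3 and 30.7 to 34.4 CPM in starved and control Tinaja fish, and 21.5 to 26.6 and 18.5 to 23.6 CPM in starved and control surface fish. Liver markers, which matter for a family that some fish express in liver, summed to 9.59 to 15.4 CPM in starved Tinaja fish, 11.5 to 19.6 CPM in control Tinaja fish, 70.8 to 76.6 CPM in starved surface fish and 55.3 to 66.0 CPM in control surface fish. The population gap in the liver sum lay in ahsg2, at 0.0547 CPM in starved Tinaja and 45.1 CPM in starved surface fish, and in fgg, at 0.181 CPM in starved Tinaja and 13.1 CPM in starved surface fish. Another liver marker, c3a.1, had 10.3 CPM in starved Tinaja and 9.65 CPM in starved surface fish and was not called. The part of these cell types in the egg coat values was not tested.

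As an alternative, libraries were scaled to the oocyte markers instead of to all genes. In starved against control surface fish this moved the median of all genes to -0.32, and 2.16% of the 3294 genes called were higher, against 54.5% of 466 before. Of all 14627 tested genes, 71 were thus called higher, against 254 before. The calls for zp3c (0.38, edgeR adjusted p 0.0196) and zp2l2 (0.34, 0.0416) were kept. The differences of zpax1 and zp3e were then 0.08 and 0.09, and zp3d.2 and zp3f.2 turned negative, at -0.01 and -0.08. Relative to the mean of the oocyte markers, therefore, zp3c and zp2l2 were higher in starved surface fish, and the others were not called. Before this scaling single markers had log2 differences from 0.01 (rbpms2a) to 0.59 (btg4), beside 0.70 for zp3c and 0.64 for zp2l2. Whether the 2 calls hold without single libraries was not tested under this scaling.

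The same scaling left 7 of 8 members called lower in starved Tinaja fish than in starved surface fish, zp2l1 being lost (-0.80, edgeR adjusted p 0.0697). Over all 14627 tested genes it called 5168, 69.1% of them higher, against 5894 and 50.3% before, with the median of all genes at 0.16. Between control fish it called 5 members lower, with log2 differences of -0.86 for zp3f.1, -0.43 for zpax1, -0.36 for zp2l2, -0.36 for zp3f.2 and -0.34 for zp3d.2. Over all tested genes it then called 4567, 31% of them higher, against 4738 and 49.5% before. The median of all genes was -0.14, and zp3c changed sign, to -0.08.

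**Figure D4:**
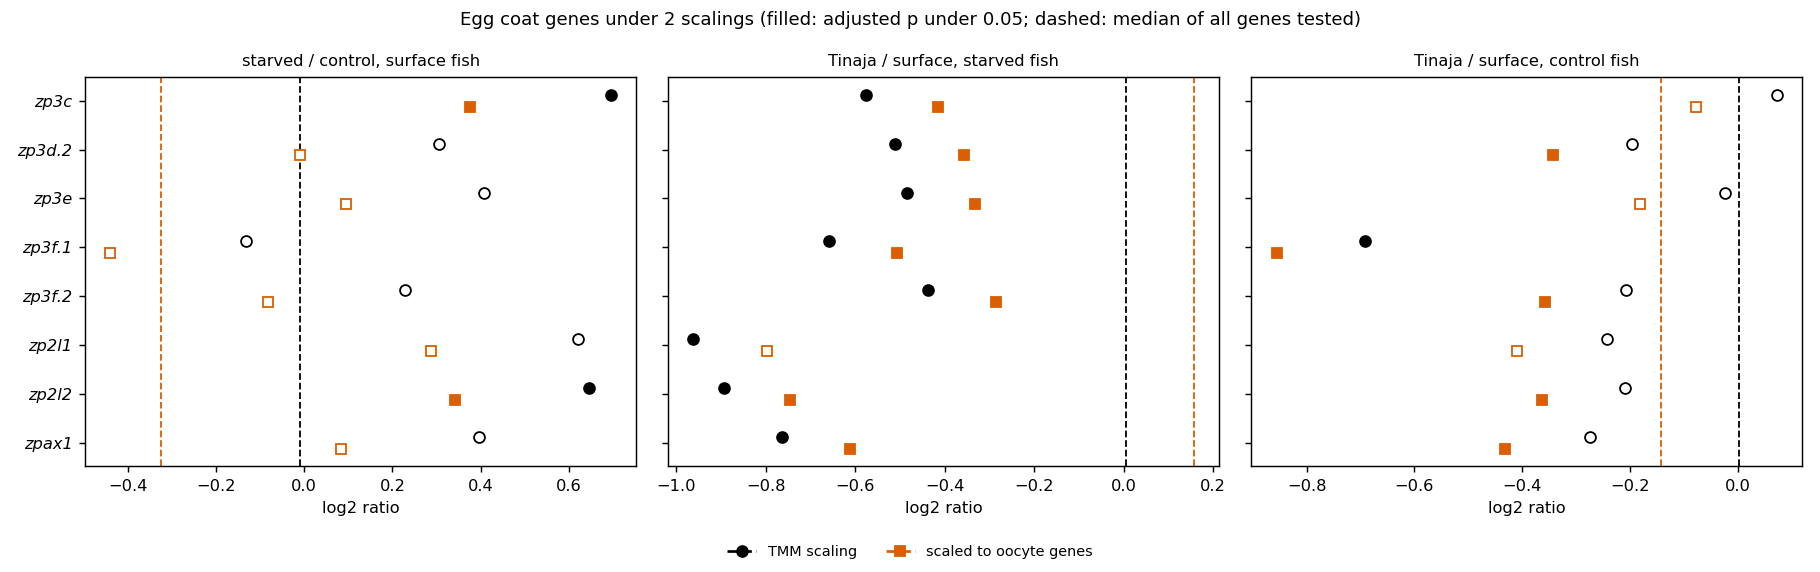
Log2 difference of each egg coat gene with libraries scaled to all genes and with libraries scaled to oocyte markers, filled where the edgeR adjusted p was under 0.05, with dashed lines at the median of all tested genes. In starved against control surface fish, zp3c and zp2l2 stay above 0 and called under both, zp3d.2 and zp3f.2 change sign, and all 8 genes stay below 0 in starved Tinaja against starved surface fish.

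Genes that act with the coat genes were taken from 4 named lists. For reading their counts, 20.3% of all tested genes were called higher in starved Tinaja than in starved surface fish, and 16.0% in control Tinaja than in control surface fish. Regulators held 6 tested genes of 7 in the table, and none was called for starvation in either population. The transcription factor figla, which in mice switches on the Zp genes in oocytes, had 6.42 ± 1.93 CPM in starved Tinaja fish, 7.29 ± 2.34 in control Tinaja fish, 8.58 ± 2.36 in starved surface fish and 8.96 ± 0.678 CPM in control surface fish (SD, n = 3 each) and was called nowhere. The oocyte factor lhx8a was lower in Tinaja fish in both feeding states, with 91.4 ± 10.7 CPM in starved Tinaja and 168 ± 8.01 CPM in starved surface fish (log2 difference -0.88, edgeR adjusted p 0.00260), and 89.6 ± 16.9 CPM in control Tinaja and 159 ± 41.3 CPM in control surface fish (-0.83, 0.00450).

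The oestrogen receptor genes esr1 and esr2a and the follicle factor foxl2b were higher in starved Tinaja than in starved surface fish, with log2 differences of 2.36, 2.97 and 2.37, and esr2a also in control fish (1.30). All 3 were low, under 4 CPM on average in every group.

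Of 10 tested genes that process or harden the coat, none was called for starvation in either population. In starved Tinaja against starved surface fish 3 were higher, 2 lower and 5 not called. The proprotein convertases furina and pcsk5b, enzymes of a family that cleaves secreted proteins, were lower, with 189 ± 16.5 and 173 ± 5.00 CPM in starved Tinaja fish, against 282 ± 45.1 and 249 ± 12.2 CPM in starved surface fish (log2 differences -0.58 and -0.52). Another convertase, furinb, was higher (0.82), while pcsk7 and PCSK6 were not called. Higher too was the membrane protease gene tmprss2, which had no read in starved surface fish. Its level was also low in starved Tinaja fish, at 1.56 CPM, with at most 18 reads in any library. The transglutaminase gene tgm2b belongs to a family that crosslinks proteins, in fish the hardening egg coat among them. It had 163 ± 49.3 CPM in starved Tinaja fish, against 4.80 ± 1.83 CPM in starved surface fish, and 223 ± 11.9 CPM in control Tinaja fish, against 5.51 ± 1.29 CPM in control surface fish (log2 differences 5.09 and 5.33). Between control fish tmprss2 and adam10a (0.32) were also higher in Tinaja fish, pcsk5b was lower (-0.26), and 6 were not called.

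Of 5 tested genes of the egg surface, the tetraspanin gene cd9b, whose mouse counterpart is needed for sperm and egg fusion, was higher in control Tinaja fish (232 ± 28.1 CPM) than in control surface fish (156 ± 6.60 CPM; log2 difference 0.57, edgeR adjusted p 0.00173). No other egg surface gene was called in any comparison.

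Among 4 tested genes of other ZP domain proteins, the one with the highest CPM, not corrected for length, was zpcx, which the naming rule leaves out. It averaged 1788 ± 93.2 CPM in starved Tinaja fish, 1875 ± 406 CPM in control Tinaja fish, 2024 ± 104 CPM in starved surface fish and 1519.6 ± 195 CPM in control surface fish, and was called in no comparison. In starved against control surface fish its log2 difference was 0.41, near those of zp3e and zpax1 (edgeR adjusted p 0.0934). In starved Tinaja against starved surface fish it was -0.18 (edgeR adjusted p 0.302), nearer to 0 than any of the 8 members. TECTA, a ZP domain gene best known from the inner ear, was higher in Tinaja fish in both feeding states (1.66 starved and 3.17 control). Its level was low, at 5.06 CPM in starved and 5.63 CPM in control Tinaja fish. Surface fish had 1.60 CPM when starved and 0.610 CPM as controls. The tested entry of ZPLD1 was lower in starved Tinaja fish (-1.41), at 2.45 CPM against 6.58 CPM in starved surface fish. Another ZPLD1 entry had 1 read in all and was not tested.

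Genes whose profile over the 12 libraries was most like that of an egg coat gene were ranked by the root mean square difference of centred log2 CPM, without a test. For zp3c the nearest were rpl15 (0.0805), brdt (0.0982), rpl17 (0.109), eif3ha (0.111) and rbpms2b (0.114), where the median over all genes with a symbol was 0.423. Of the members, zp3e was 37th and zpax1 482nd of 11467 genes in likeness to zp3c, and zp3f.1 was 6194th. For zp2l2 the nearest were mgst3b (0.160), FKBP3 (0.165), zpax1 (0.165), elac1 (0.175) and cirbpb (0.177), farther off than for zp3c. For zpax1 they were alg13 (0.0704), hdx (0.0897), znf326 (0.0971), rps9 (0.102) and dnd1 (0.104), with zp3e 39th.

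In the RefSeq gene table of the AstMex3_surface assembly, 5 of the 8 members could be placed by name. Their 10 neighbours included 4 tested genes, and none was called for starvation in surface fish. Beside zp3e, ddx42 had a log2 difference of 0.06 (edgeR adjusted p 0.750). On either side of zpax1, ttc32 had a log2 difference of 0.03 and mixl1 of 1.06 (edgeR adjusted p 0.118 for mixl1).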

How the data were processed

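The authors deposited raw counts, whole reads per gene and library, for 27420 genes and 12 ovary libraries. STAR 2.7.10b and RSEM are listed in the submitters' processing notes, without their roles. The sources used here do not give the genome build, the annotation or the strand setting. The 4 entries that name no gene (34.8% to 44.8% of reads) entered neither library sizes nor tests. The deposited scaled signal table differed from the raw counts as scaled here by a relative 4.97e-15 at most. Multiplied back by the same scale factors, it gave whole reads for 100% of its values within 0.001. On those reads edgeR called 466 genes between starved and control surface fish. This number had to match that of the raw table and is no separate check.

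The test was edgeR's quasi-likelihood F test (version 4.0.16, R 4.3.3). Genes passed filterByExpr at a minimum count of 10, libraries were scaled with TMM factors, and 1 robust fit held the 12 libraries in 4 group means (8 residual degrees of freedom, biological coefficient of variation 0.191). Benjamini-Hochberg adjustment ran over all 14627 genes tested, and an adjusted p under 0.05 was called. The SE is the absolute log2 value over the root of its F statistic, and 95% intervals use it. Alternatives were other scalings, no filter, DESeq2 1.42.0, limma voom 3.58.1, only the groups compared, the replicate number as a block, and leaving out each library.

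Named genes are the members by symbol, the 5 genes nearest in profile to zp3c, zp2l2 and zpax1, and from the pathway lists each called gene and up to 2 others of highest mean level. Members and lists were chosen with earlier results of these data known. Levels are not compared between genes per length, since no transcript lengths were used. The test was also run on simulated counts, drawn with the spread fitted to these data and with changes planted only in starved surface fish. That run cannot show how the calls above depend on single libraries.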

Additional observations from a re-analysis of the deposited data

How the results depend on the processing

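Across the alternatives no called difference of an egg coat gene turned direction. In surface fish edgeR called 2 members for starvation. DESeq2 size factors gave 4 (zp2l2, zp3c, zp3d.2 and zp3e), and the DESeq2 test gave 5, with zpax1 added. Limma voom gave 4 (zp2l2, zp3c, zp3e and zpax1), and no filter gave 3 (zp3c, zp3e and zpax1, without zp2l2). The surface libraries alone gave 0 (6 at an unadjusted p under 0.05, as were 3017 genes in all). The replicate block gave 1 (zp3c, with zp2l2 at an edgeR adjusted p of 0.0623), and leaving out 1 library 0 to 5. Counts over all genes were 482 with DESeq2 size factors, 461 with limma voom and 416 with no filter, against 466. They were 3294 with oocyte scaling, 1301 with the DESeq2 test, 141 with the surface libraries alone and 80 with the replicate block. Without 1 library they were 27 to 864. For starvation in Tinaja fish, DESeq2 called 18 genes, limma voom 1, the Tinaja libraries alone 0 (452 at an unadjusted p under 0.05) and leaving out 1 library 3 to 34, against 3; no setting called a member. For the difference of responses DESeq2 called 4 members and 270 genes, against 0 and 10, and leaving out 1 library gave 0 members and 8 to 49 genes. Between control fish, oocyte scaling called 5 members, and no filter, DESeq2, limma voom and the replicate block 2 each, against 1. Beside zp3f.1 the second was zpax1, except with the replicate block, where it was zp3d.2. Leaving out 1 library gave 1 to 3. Over all genes, these settings called 4377 (replicate block) to 4933 (DESeq2), against 4738. Without 1 library the range was 3723 to 4852. Between starved fish, 7 or 8 members were called under each alternative run. Over all genes, leaving out 1 library gave 4743 to 6064 calls there, against 5894. The cause of these shifts was not tested. Fewer samples enter the fits of only the groups compared and those without a library, and the difference of responses has no fit of only 2 groups.

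No pairing of the samples by replicate number was seen. Same-numbered libraries of different groups had correlated deviations of -0.311 to 0.0826, none of 12 pairs over 0.1. Of 24 best matches, 8 fell on the library's own number. Differently numbered Tinaja libraries reached 0.303, for starved library 2 with control library 1. Whether libraries shared tanks or families cannot be told from these values. For zp2l1 in starved Tinaja against starved surface fish, the call was lost with limma voom (0.0570), no filter (0.0756), only these groups (0.0583) and the replicate block (0.0755). With 3 libraries a group, the 95% interval of the starved minus control difference in surface fish ran from 0.43 to 0.96 for zp3c and from -0.10 to 1.34 for zp2l1.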
